A study of Mus musculus with 18 samples.

Results

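The treatment of zygotes with sodium crotonate was compared with DMSO at the early 2-cell stage (E2C) over all genes measured. The comparison rested on 4 of the 18 mouse libraries of the series. They were chosen by label, as the 2 libraries of crotonate-treated embryos and the 2 libraries of DMSO-treated embryos, with no use of measured values. The other libraries were 2 of zygotes treated with sodium acetate in the same experiment and 12 of a separate experiment with small interfering RNAs (siRNAs).

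All 6 treatment libraries came from wild-type embryos, pooled by 5 to 10 per tube, and were prepared by Smart-seq2, which copies whole polyadenylated RNAs, and read as pairs of 150 nt. The crotonate group and the acetate group differ only in the salt named in their labels, and the DMSO group received neither. In the siRNA experiment an siRNA against Echs1 (siEchs1) was set against a control siRNA (siCon) at E2C and at L2C, a label that was not spelled out, in 3 libraries per group whose labels named no genotype. Doses, the strain and the duration of treatment were absent from the labels used here. Nothing said that replicates were separate cultures, so every p-value measures a spread between samples that may be technical.

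Crotonate is a short-chain fatty acid that cells turn into crotonyl-CoA, the donor for crotonylation of histone lysines. Acyltransferases such as Ep300 and Crebbp add the mark, class I histone deacetylases and some sirtuins remove it, and proteins with YEATS or double PHD finger domains bind it. Echs1, an enoyl-CoA hydratase of mitochondria, consumes crotonyl-CoA. At the early 2-cell stage the mouse embryo still holds many transcripts made by the oocyte, which are being degraded, while the main wave of transcription from its own genome is about to begin or has just begun.

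The values were FPKM, fragments scaled by exon length and by all mapped fragments. Their total was 827022 and 789059 in the crotonate libraries, 991378 and 774105 in the acetate libraries and 773359 and 770222 in the DMSO libraries. Read depth was not given and could be estimated only roughly. Replicates of crotonate ranked genes alike (Spearman's rank correlation 0.930 across genes), as did those of DMSO (0.932), and 7.39% and 7.08% of tested genes were more than 2-fold apart within these groups. The acetate replicates were farther apart, with a rank correlation of 0.870 and 26.0% of genes more than 2-fold apart. All 9 markers checked for the labelled stage passed the filter on low values, among them Zscan4d, Zfp352 and Tcstv3 of the 2-cell embryo and the oocyte gene Btg4. Transcripts of the mitochondrial genome made up 19.8% and 16.7% of the FPKM total in crotonate libraries, 20.7% and 11.9% in acetate and 13.4% and 12.2% in DMSO. Summed blood markers, of which 3 of 7 passed that filter, were higher in crotonate libraries, at 11.4 to 17.1 FPKM, against 2.96 to 5.32 FPKM with acetate and 4.12 to 5.00 FPKM with DMSO. Their part in the results was not tested. Lyz2, of macrophages and granulocytes, was at 3.28 and 2.03 FPKM with crotonate, 0.60 and 0.29 FPKM with acetate and 0.17 and 0.31 FPKM with DMSO. Hbb-bt, a beta-globin gene, was listed at 0 in every treatment library, as were Amh and Inha of granulosa cells. Other markers of these cells were detected. Of 11 granulosa markers checked, 1 passed the filter, Cyp19a1, at 3.03 to 6.98 FPKM over the 6 treatment libraries. The alpha-globin gene Hba-a1 was at 8.34 and 5.97 FPKM with crotonate, 3.95 and 1.81 FPKM with acetate and 3.58 and 3.06 FPKM with DMSO. Other blood markers did not pass the filter. Ptprc was listed at 0 in both crotonate libraries, at 0 and 0.01 FPKM with acetate and at 0.15 and 0.02 FPKM with DMSO. Alas2 was detected in DMSO replicate 1 alone, at 0.49 FPKM, and Hbb-bs in crotonate replicate 1 alone, at 2.05 FPKM.

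A small set of protein-coding genes was lower in crotonate embryos by several-fold, and few were higher. Of the 13805 genes that reached 1 FPKM in 2 or more treatment libraries, 73 (0.529%) passed an adjusted p of 0.05 (limma on log2(FPKM + 1), Benjamini-Hochberg over all genes tested, spread taken from all 6 treatment libraries). A total of 29 genes (0.210%) were higher and 44 (0.319%) lower in crotonate, and 2257 genes had an unadjusted p under 0.05, 790 of them higher (5.72%) and 1467 lower (10.6%). By size alone, 697 genes (5.05%) were at least 2-fold higher and 1208 (8.75%) at least 2-fold lower with libraries that did not overlap. Of the 44 lower genes 37 were protein coding, whereas 19 of the 29 higher ones had under 200 nt of exon. The median over all genes tested was -0.15 on the log2 scale. In such bulk samples, fewer cells with a transcript and less of it per cell cannot be told apart. When the crotonate and DMSO libraries were fitted alone, so that the spread between the acetate libraries did not enter, 299 genes (2.17%) were higher and 845 (6.12%) lower, of which 162 and 767 were protein coding. Both counts are given in what follows, as the fit of 6 and the fit of 4 libraries. Protein-coding genes called in the fit of 4 had median levels of 16.1 FPKM (higher) and 23.9 FPKM (lower). That of all tested protein-coding genes was 7.37 FPKM. Shares of all genes given below for comparison are not matched for level. With 2 libraries a group an exact permutation test cannot go below p = 0.333, so the calls lean on the variance shared across genes. Leaving out a library changed the number of calls greatly. It was 19 and 8 without crotonate replicate 1 and 2, 1143 and 1057 without acetate replicate 1 and 2, and 9 and 18 without DMSO replicate 1 and 2. Without a crotonate or a DMSO library, none of the protein-coding genes called with all 6 libraries passed.

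**Figure D1:**
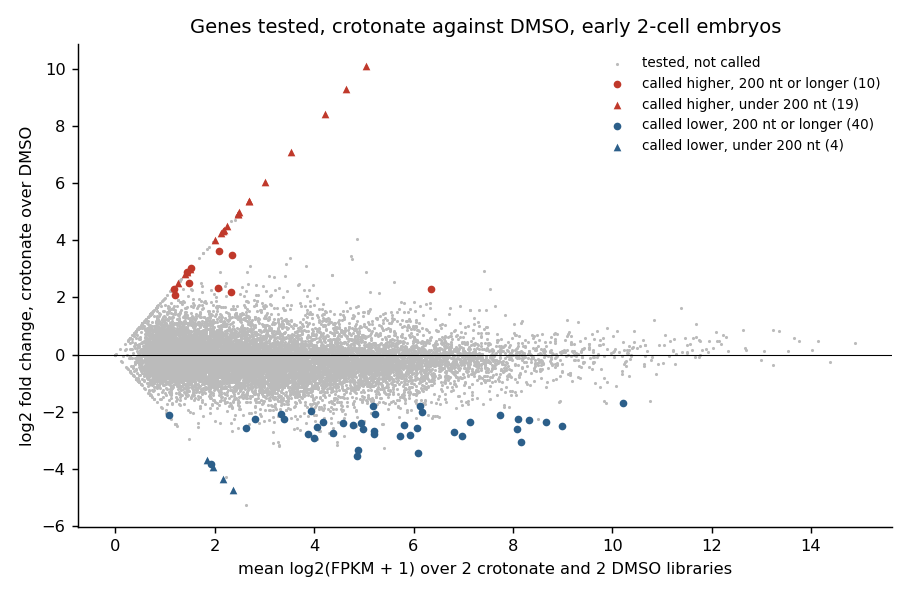
Each point is 1 of the 13805 genes, placed by its mean log2(FPKM + 1) over the 4 crotonate and DMSO libraries (x) and its fitted log2 difference, crotonate minus DMSO (y). Genes called in the fit of 6 libraries are coloured, split at 200 nt of exon, with 10 longer and 19 shorter genes higher and 40 longer and 4 shorter genes lower.

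The genes that fell had varied roles, and a few that encode proteins of the spindle, the kinetochore or the centromere are given first, put together after their values were seen. Aspm, a spindle pole protein, was at 128 and 76.1 FPKM with crotonate, 531 and 678 FPKM with acetate and 748 and 894 FPKM with DMSO. Its 3 groups did not overlap, and crotonate was lower than DMSO by a log2 difference of -3.04 ± 0.33 (SE, limma adjusted p = 0.0188). Tacc3, which with clathrin and Ckap5 bridges spindle microtubules, was at 24.9 and 15.7 FPKM with crotonate, 77.7 and 225 FPKM with acetate and 213 and 237 FPKM with DMSO (-3.44 ± 0.49, adjusted p = 0.0375). Both crotonate libraries lay below every other library, while the acetate libraries overlapped DMSO. Dlgap5, a spindle assembly factor, was at 25.4 and 20.5 FPKM with crotonate and 118 and 144 FPKM with DMSO (adjusted p = 0.0475). Zwilch, a kinetochore protein of the spindle checkpoint, was at 4.11 and 3.72 FPKM with crotonate against 20.1 and 19.8 FPKM with DMSO. Mis18a, which helps load the centromeric histone Cenpa, was at 18.6 and 18.3 FPKM with crotonate against 63.7 and 70.2 FPKM with DMSO. For these 3 genes as well, crotonate and DMSO libraries were far apart and replicates close together.

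Kpna2, an importin that carries proteins into the nucleus, was at 118 and 101 FPKM with crotonate, 359 and 475 FPKM with acetate and 651 and 681 FPKM with DMSO (-2.59, adjusted p = 0.0188). The promoters of Aspm and Kpna2 are shown because both fell together and both hold the letters of 2 motifs known from genes of the cell division programme. The windows run from 250 bases before to 50 after the RefSeq start on GRCm38.p6, at chr1:139454523-139454822 on the plus strand and chr11:106999476-106999775 on the minus strand. Capitals mark CCAAT, or ATTGG on the other strand, and TTTGAA, or TTCAAA on the other strand.
Aspm: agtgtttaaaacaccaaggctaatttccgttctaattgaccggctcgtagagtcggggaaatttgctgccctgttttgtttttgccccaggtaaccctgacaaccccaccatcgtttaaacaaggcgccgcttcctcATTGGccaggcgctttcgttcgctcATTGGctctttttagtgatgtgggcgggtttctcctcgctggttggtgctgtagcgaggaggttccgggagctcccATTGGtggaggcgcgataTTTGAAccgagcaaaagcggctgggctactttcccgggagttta
Kpna2: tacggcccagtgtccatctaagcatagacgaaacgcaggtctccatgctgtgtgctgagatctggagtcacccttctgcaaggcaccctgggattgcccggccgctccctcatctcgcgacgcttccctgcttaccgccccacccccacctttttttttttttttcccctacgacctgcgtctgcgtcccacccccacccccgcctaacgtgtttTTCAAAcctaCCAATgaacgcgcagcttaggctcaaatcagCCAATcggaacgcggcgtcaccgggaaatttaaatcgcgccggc
Aspm's window held 3 CCAAT and 1 TTTGAA, and that of Kpna2 held 2 and 1. CCAAT stood in 41.9% of 31 windows of the protein-coding genes called lower in the fit of 6, 40.6% of those lower in the fit of 4, 37.0% of those higher in the fit of 4 and 39.3% of windows of all tested protein-coding genes. The shares with TTTGAA were 9.68%, 12.9%, 9.59% and 13.2%, so both motifs were about as frequent as among all tested genes. Over all 32851 RefSeq windows the shares were 37.4% and 17.9%. Windows were at hand for 25 of the 37 genes lower in the fit of 6 and 603 of 767 lower in the fit of 4. Both strands were searched, and a match describes letters, not a bound site.

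The 8 largest called falls above 5 FPKM, with predicted genes left out, also took in genes with other roles. Gm813, a predicted protein-coding gene left out by that rule, was at 8.66 and 6.42 FPKM with crotonate, 46.3 and 143 FPKM with acetate and 75.8 and 127 FPKM with DMSO (-3.55, limma adjusted p = 0.0428). Ip6k2, an inositol hexakisphosphate kinase, was at 9.84 and 6.85 FPKM with crotonate, 29.2 and 71.5 FPKM with acetate and 92.1 and 92.9 FPKM with DMSO (-3.34 ± 0.44, adjusted p = 0.0296). Eif3e, a subunit of translation initiation factor eIF3, was at 6.58 and 3.55 FPKM with crotonate, against 32.02 and 34.7 FPKM with acetate and 40.2 and 46.1 FPKM with DMSO (-2.91 ± 0.35, adjusted p = 0.0223). Clcc1, a chloride channel of the endoplasmic reticulum, was at 46.6 and 45.8 FPKM with crotonate, against 104 and 222 FPKM with acetate and 317 and 360 FPKM with DMSO (-2.84 ± 0.38, adjusted p = 0.0296). In all 3 the crotonate libraries were lowest and the DMSO libraries highest, with acetate between them.

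Mtfr2, a mitochondrial fission regulator, was at 18.8 and 18.9 FPKM with crotonate, 42.7 and 69.7 FPKM with acetate and 130 and 152 FPKM with DMSO (-2.83 ± 0.32, adjusted p = 0.0209). Nsrp1, a splicing regulator of nuclear speckles, was at 32.1 and 14.97 FPKM with crotonate, against 112 and 93.7 FPKM with acetate and 145 and 180 FPKM with DMSO (adjusted p = 0.0316). Taf1b, a subunit of the selectivity factor of RNA polymerase I, was at 4.94 and 4.38 FPKM with crotonate, against 11.4 and 26.0 FPKM with acetate and 34.6 and 40.6 FPKM with DMSO (adjusted p = 0.0428). The order crotonate, acetate, DMSO held library by library in each. Ssb, the La protein that binds the ends of new polymerase III transcripts, had the highest DMSO level of the falling genes named here, with 237 and 191 FPKM with crotonate, 789 and 920 FPKM with acetate and 1108 and 1314 FPKM with DMSO (-2.50, adjusted p = 0.0188).

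**Figure D2:**
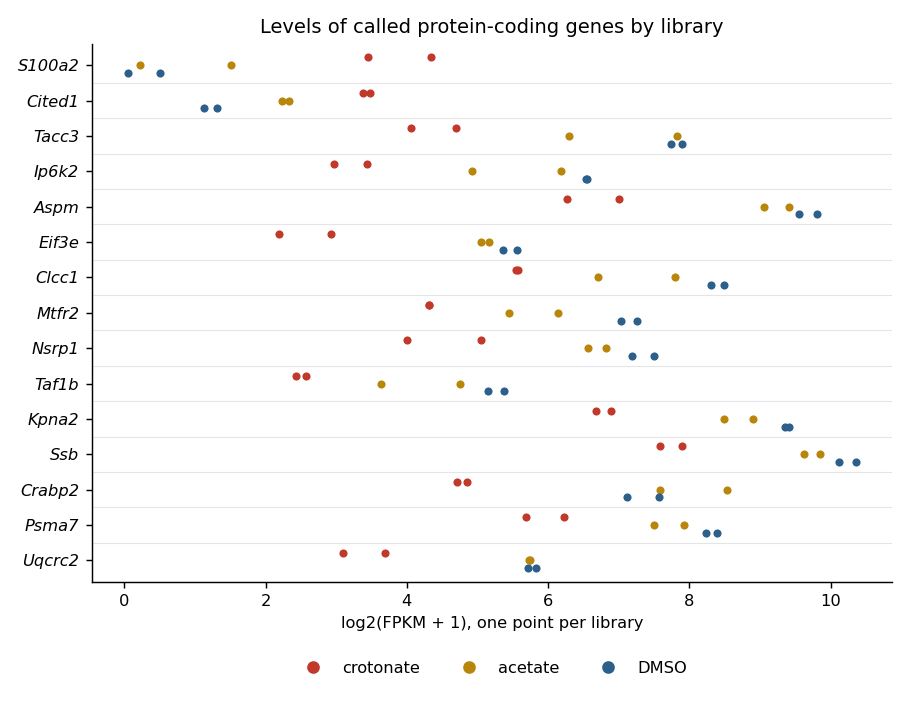
Expression as log2(FPKM + 1) (x) of 15 genes called in the fit of 6 libraries, 1 point per library, coloured by crotonate, acetate and DMSO. S100a2 and Cited1 are highest in the crotonate libraries, and for the other 13 genes both crotonate points lie below both DMSO points.

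Few longer protein-coding genes rose. S100a2, a calcium-binding protein, was at 19.4 and 9.95 FPKM with crotonate, 1.85 and 0.17 FPKM with acetate and 0.42 and 0.04 FPKM with DMSO (3.62 ± 0.52, adjusted p = 0.0382). Cited1, a transcriptional co-regulator that binds Ep300 and Crebbp, was at 9.39 and 10.1 FPKM with crotonate, 4.04 and 3.69 FPKM with acetate and 1.19 and 1.49 FPKM with DMSO (2.20 ± 0.33, adjusted p = 0.0428). Crotonate libraries of both genes lay above all others. The other 3 protein-coding genes called higher were Fst, an activin-binding protein, with 3.91 and 4.17 FPKM with crotonate against 0.02 and 0.02 FPKM with DMSO, Terb2, a meiotic telomere protein, with 3.56 and 3.84 FPKM with crotonate against 0.13 and 0.09 FPKM with DMSO, and Gm5890, with 4.92 and 8.08 FPKM with crotonate and listed at 0 in DMSO. These 3 genes reached 1 FPKM in the crotonate libraries alone, so they passed the filter through the group where they were high. S100a2 passed it that way too, since acetate replicate 1 was the only other library at 1 FPKM or more. Fst is also on a list of 22 cumulus and granulosa markers, of which 4 were tested. A shorter set of 11 markers of these cells, which does not hold Fst, had 1 tested gene. The summed level of that shorter set was 4.34 to 5.54 FPKM with crotonate, 3.87 to 7.70 FPKM with acetate and 6.86 to 8.12 FPKM with DMSO.

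Among genes higher in crotonate, and with predicted genes left out, the next 6 in order of p above 5 FPKM with libraries that did not overlap were short of the threshold. Crxos, an oocyte and early embryo homeobox gene, was at 27.9 and 28.2 FPKM with crotonate, 11.3 and 11.98 FPKM with acetate and 7.45 and 6.46 FPKM with DMSO (1.87, limma adjusted p = 0.0533). Snrnp70, a protein of the U1 small nuclear ribonucleoprotein, was at 414 and 308 FPKM with crotonate, against 104 and 67.4 FPKM with acetate and 100.1 and 118 FPKM with DMSO (1.71, adjusted p = 0.0671). Arhgef40 was at 389 and 356 FPKM with crotonate against 138 and 143 FPKM with DMSO (1.40, adjusted p = 0.0692). The others were Cyp26a1 (2.90, adjusted p = 0.0543), Rnd3 (1.88, adjusted p = 0.0671) and the ascorbate transporter Slc23a1 (1.68, adjusted p = 0.0714).

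Small non-coding RNA genes made up most of the called rises. All 19 genes with under 200 nt of exon that were called higher were listed at 0 in every DMSO and acetate library, and all 4 called lower were listed at 0 in both crotonate libraries. A gene that passes the filter through 1 group alone had to differ, so these counts describe detection and are given with no fold change. Over the 294 such genes tested, 34 were detected in both crotonate libraries and in none of the other 4, while 4 were detected in both DMSO libraries alone and 3 in both acetate libraries alone. Among the 105 small nucleolar RNA (snoRNA) genes these numbers were 11, 0 and 0. The steps between low FPKM values gave a rough estimate of 14.5 and 15.8 M fragments in the crotonate libraries, 11.5 and 8.06 M in the acetate libraries and 10.5 and 11.8 M in the DMSO libraries. Depth on this estimate was highest with crotonate, and its part in the detection counts was not tested. Small RNAs are shorter than the 150-nt reads and have no poly(A) tail, so how their fragments entered these libraries is not given by the sources used here.

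The snoRNAs called higher included several of the box C/D kind, which guide 2'-O-methylation of other RNAs. Snord100, at chr10:23785750-23785823 on the minus strand of mm10 inside the gene of the ribosomal protein Rps12, was at 834 and 475 FPKM with crotonate and listed at 0 elsewhere. Snord50a, at chr9:88521529-88521600 on the minus strand inside Snhg5, was at 39.9 and 21.9 FPKM, and Snord50b, its neighbour in the same gene at chr9:88521797-88521868, at 18.6 and 87.0 FPKM. Snord14c, at chr9:40803583-40803668 on the plus strand inside the heat shock gene Hspa8, was at 16.3 and 56.2 FPKM. In all 4 both crotonate libraries had signal and no acetate or DMSO library did. Without crotonate, detection also differed between replicates of 1 group in the siRNA experiment. Snord100 was at 285 FPKM in siEchs1 E2C replicate 3 and listed at 0 in replicates 1 and 2. In siCon L2C it was at 653 FPKM in replicate 2 and listed at 0 in replicates 1 and 3. Snord50a was listed at 0 in every siRNA library. The sequences of the 4 snoRNAs are shown because each holds both boxes of the class, TGATGA (box C) near the 5' end and CTGA (box D) near the 3' end, in capitals.
Snord100: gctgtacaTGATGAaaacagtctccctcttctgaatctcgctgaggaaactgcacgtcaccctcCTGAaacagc
Snord50a: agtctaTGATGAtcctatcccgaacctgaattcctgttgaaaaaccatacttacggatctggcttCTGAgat
Snord50b: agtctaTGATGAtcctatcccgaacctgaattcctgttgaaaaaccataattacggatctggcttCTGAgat
Snord14c: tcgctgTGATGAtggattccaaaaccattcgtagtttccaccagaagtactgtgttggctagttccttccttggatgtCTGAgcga
Snord50a and Snord50b differ at 1 position, C50A, counted from 1 at the 5' end of Snord50a, and 2 further predicted genes, Gm24463 and Gm26135, have the same sequences and the same values. Reads of such copies cannot be assigned to one of them. The host genes, in contrast, were detected in all 6 libraries. Rps12 was at 168 and 158 FPKM with crotonate, 469.8 and 217 FPKM with acetate and 171 and 225 FPKM with DMSO, and Snhg5 at 21.1 and 20.3 FPKM with crotonate, 25.4 and 23.6 FPKM with acetate and 18.3 and 16.3 FPKM with DMSO (adjusted p = 0.740). Hspa8 was at 22.1 and 24.5 FPKM with crotonate, 18.7 and 49.5 FPKM with acetate and 33.4 and 25.8 FPKM with DMSO.

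The highest values among the small genes called were those of Gm27656, annotated as a microRNA gene at chr13:91752106-91752185 on the plus strand within Acot12, with 1235 and 969 FPKM with crotonate and listed at 0 elsewhere. Gm27399, at chr11:98238618-98238695 within Cdk12, was at 81.7 and 218 FPKM with crotonate and likewise listed at 0 in the other 4 libraries. Their sequences are shown because they share a run of 24 nt, in capitals, which belongs to the B2 family of short interspersed repeats, so fragments of other copies of the repeat cannot be told apart from theirs.
Gm27656: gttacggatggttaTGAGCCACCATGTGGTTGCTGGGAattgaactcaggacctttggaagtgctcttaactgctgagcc
Gm27399: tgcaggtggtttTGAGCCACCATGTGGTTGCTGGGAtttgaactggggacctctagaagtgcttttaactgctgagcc
mt-Tl1, a mitochondrial leucine tRNA, was at 393 and 299 FPKM with crotonate and listed at 0 in acetate and DMSO. In the siRNA experiment it was at 513 FPKM in siEchs1 E2C replicate 3 and listed at 0 in replicates 1 and 2. In siCon L2C it was listed at 0 in replicate 1 and at 190 and 201 FPKM in replicates 2 and 3.

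Transcripts of the oocyte split, with a tandem F-box family lower and another tandem family higher. Of 82 tested oocyte transcripts 4 were called lower and 0 higher in the fit of 6. At an unadjusted p under 0.05, 37 (45.1%) were lower and 5 (6.10%) higher, against 10.6% and 5.72% of all genes. In the fit of 4, 28 (34.1%) were lower and 6 higher, against 6.12% and 2.17% of all genes, and the list's median was -0.78 against -0.15 over all genes. The Fbxw genes, which encode F-box and WD-repeat proteins of the oocyte, lie in 1 cluster at chr9:109139447-109790670. All but Fbxw23 of the 15 tested were lower in crotonate with libraries that did not overlap, 3 of them were called in the fit of 6 and 10 in the fit of 4, and the family was grouped after its values were seen. Of all genes tested, 38.4% were lower and 19.2% higher with libraries that did not overlap. Fbxw28 was at 225 and 139 FPKM with crotonate, 1056 and 1336 FPKM with acetate and 754 and 1111 FPKM with DMSO (-2.36 ± 0.34, adjusted p = 0.0391). Fbxw14 was at 180 and 116 FPKM with crotonate, against 757 and 966 FPKM with acetate and 588 and 851 FPKM with DMSO (-2.28 ± 0.34, adjusted p = 0.0408), and Fbxw21 at 18.8 and 15.8 FPKM with crotonate against 82.2 and 89.5 FPKM with acetate and 60.8 and 94.4 FPKM with DMSO (adjusted p = 0.0428). In these genes the acetate libraries overlapped or exceeded DMSO, and the crotonate libraries lay below both. The summed level of the cluster was 1180 and 749.7 FPKM with crotonate, 4436 and 4842 FPKM with acetate and 2897 and 4223 FPKM with DMSO. Its median log2 difference was -1.54, between -2.06 and -1.08 over the 4 pairs of a crotonate with a DMSO library, and -1.34, -1.28 and -1.52 under the 3 other scalings of the values.

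Many promoters of the cluster resemble each other in sequence. The promoters of Fbxw14 (chr9:109287627-109287926, minus strand) and Fbxw28 (chr9:109339610-109339909, minus strand) on GRCm38.p6 are shown as the closest pair, 97.0% identical, with capitals at the 8 bases of each that are not matched in the other.
Fbxw14: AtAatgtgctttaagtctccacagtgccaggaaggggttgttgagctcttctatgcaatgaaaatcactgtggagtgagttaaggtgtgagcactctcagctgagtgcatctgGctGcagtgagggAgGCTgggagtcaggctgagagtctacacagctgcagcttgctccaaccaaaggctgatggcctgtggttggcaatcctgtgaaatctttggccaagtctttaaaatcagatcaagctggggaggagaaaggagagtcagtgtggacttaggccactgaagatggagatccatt
Fbxw28: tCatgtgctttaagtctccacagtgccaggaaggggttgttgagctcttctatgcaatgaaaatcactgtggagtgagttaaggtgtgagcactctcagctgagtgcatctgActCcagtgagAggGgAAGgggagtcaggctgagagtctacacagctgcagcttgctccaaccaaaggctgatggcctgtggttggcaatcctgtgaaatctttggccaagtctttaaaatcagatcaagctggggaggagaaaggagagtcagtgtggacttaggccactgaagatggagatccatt
Over the 12 promoters of the family in RefSeq, the 66 pairs were 44.8% to 97.0% identical, with a median of 82.9%. The transcripts were not compared, so whether reads can be split between members was not tested. Where reads are shared, the sum of the family is safer to read than single genes.

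The 6 oocyte transcripts higher in the fit of 4 were Omt2a and all 5 tested members of Tcl1b, a cluster of T-cell leukaemia 1 relatives at chr12:105146014-105206993. None passed in the fit of 6. Tcl1b2 was at 4724 and 4659 FPKM with crotonate, 3219 and 1339 FPKM with acetate and 1640 and 1390 FPKM with DMSO (1.64, adjusted p = 0.111 in the fit of 6 and 0.0148 in the fit of 4). Both crotonate libraries were above all others, while acetate replicate 1 stood well above acetate replicate 2. The cluster's sum was 25814 and 27145 FPKM with crotonate, 22418 and 11795 FPKM with acetate and 14088 and 11756 FPKM with DMSO, with a median log2 difference of 1.06. The oocyte genes Btg4, Gdf9 and Zp3 were not called in either fit. Btg4, an adaptor of maternal mRNA decay, was at 4776 and 4339 FPKM with crotonate, 5584 and 3920 FPKM with acetate and 4081 and 3654 FPKM with DMSO. Gdf9, an oocyte growth factor, was at 158 and 132 FPKM with crotonate, 143 and 338 FPKM with acetate and 228 and 271 FPKM with DMSO, and Zp3, of the zona pellucida, at 6.52 and 7.94 FPKM with crotonate against 11.6 and 18.7 FPKM with DMSO.

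**Figure D3:**
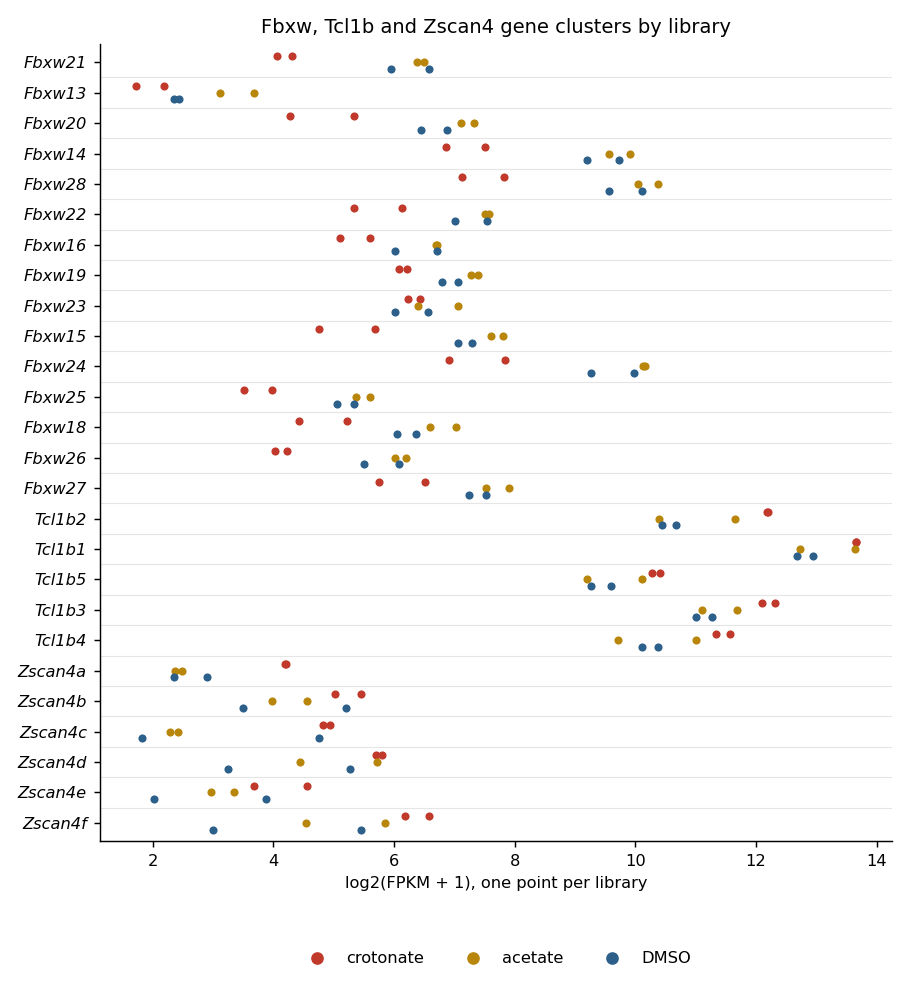
Expression as log2(FPKM + 1) (x) of the genes of 3 tandem families in genomic order, Fbxw (15), Tcl1b (5) and Zscan4 (6), 1 point per library. Crotonate points lie below DMSO across Fbxw except at Fbxw23 and above DMSO across Tcl1b, whereas the DMSO points of Zscan4 are themselves far apart.

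No gene typical of the 2-cell stage passed the test in the fit of 6. Of 47 tested genes that mouse embryos express transiently at this stage, 0 were called in the fit of 6 (limma), with 8 higher (17.0%) and 4 lower (8.51%) at an unadjusted p under 0.05, against 5.72% and 10.6% of all genes. In the fit of 4, 1 was higher (2.13%) and 3 lower (6.38%), close to the 2.17% and 6.12% of all genes. The list's median was 0.67, with 38 genes positive and 9 negative, but over the 4 pairs of a crotonate with a DMSO library it lay between -0.04 and 1.29. The gene higher in the fit of 4 was Zscan4a, at 17.4 and 17.2 FPKM with crotonate, 4.59 and 4.19 FPKM with acetate and 6.45 and 4.09 FPKM with DMSO (1.57, adjusted p = 0.0925 in the fit of 6 and 0.0314 in the fit of 4). Zscan4d, of the same telomere-regulating family, was at 55.1 and 51.2 FPKM with crotonate, 51.5 and 20.7 FPKM with acetate and 37.6 and 8.48 FPKM with DMSO. Zscan4c was at 27.4 and 29.7 FPKM with crotonate, 4.36 and 3.89 FPKM with acetate and 26.0 and 2.54 FPKM with DMSO. The crotonate replicates were close, while the DMSO replicates differed by several-fold and replicate 1 reached the crotonate level for Zscan4c. The sum over the 6 Zscan4 genes was 215 and 258 FPKM with crotonate, 147 and 75.02 FPKM with acetate and 163 and 35.5 FPKM with DMSO.

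Other genes of this stage were not called in the fit of 6 either. Duxf3, a copy of the transcription factor Dux that opens the 2-cell programme, was at 7.66 and 5.46 FPKM with crotonate, 4.55 and 9.77 FPKM with acetate and 11.9 and 8.93 FPKM with DMSO. Zfp352, a zinc finger gene of the 2-cell stage, was at 58.6 and 67.7 FPKM with crotonate, 71.7 and 67.3 FPKM with acetate and 61.5 and 36.2 FPKM with DMSO. Tcstv3 was at 73.4 and 64.0 FPKM with crotonate, 81.3 and 54.0 FPKM with acetate and 52.9 and 39.2 FPKM with DMSO. The 3 genes of this stage lower in the fit of 4 were Arg2, an arginase, at 39.9 and 32.2 FPKM with crotonate against 98.6 and 147 FPKM with DMSO, Sp110, at 121 and 131 FPKM with crotonate against 233 and 311 FPKM with DMSO, and Pramef12, at 74.0 and 88.3 FPKM with crotonate against 199 and 210 FPKM with DMSO (adjusted p = 0.0246, 0.0344 and 0.0202 in that fit).

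The machinery of crotonylation itself showed no call in the fit of 6. Of 25 tested genes chosen for their role in crotonylation, the 2-cell stage or the oocyte, 0 passed in either limma fit, and 2, the lower Zp3 and Dppa2, had an unadjusted p under 0.05. Dppa2, which helps start the 2-cell programme, was at 42.8 and 35.3 FPKM with crotonate, 43.8 and 67.3 FPKM with acetate and 64.1 and 71.3 FPKM with DMSO. Echs1 was at 32.1 and 27.8 FPKM with crotonate, 42.6 and 36.2 FPKM with acetate and 37.4 and 38.4 FPKM with DMSO (adjusted p = 0.623). Among the writers, Ep300 was at 4.75 and 8.62 FPKM with crotonate against 5.68 and 7.59 FPKM with DMSO, with overlapping libraries. Crebbp was at 61.4 and 49.3 FPKM with crotonate, 17.0 and 28.4 FPKM with acetate and 34.1 and 35.8 FPKM with DMSO, without overlap but short of the threshold (adjusted p = 0.401). Among the erasers, Hdac1 was at 35.6 and 41.4 FPKM with crotonate, 17.2 and 14.7 FPKM with acetate and 24.3 and 22.8 FPKM with DMSO (adjusted p = 0.307), and Sirt1 at 21.8 and 16.5 FPKM with crotonate against 8.72 and 14.8 FPKM with DMSO. The reader Mllt3, a YEATS protein, was at 123 and 82.9 FPKM with crotonate against 91.5 and 84.4 FPKM with DMSO. Of 30 tested writers, erasers and readers, 2 (6.67%, against 6.12% of all genes) were lower in the fit of 4, Dpf3 and Kat7, and 0 higher, with a list median of 0.05. Of 23 genes of crotonyl-CoA metabolism, 2 (8.70%) were lower in that fit and 0 higher. Both shares lie near that of all genes. The 2 of crotonyl-CoA metabolism were Etfa, which takes electrons from acyl-CoA dehydrogenases, at 10.5 and 12.3 FPKM with crotonate, 48.6 and 47.9 FPKM with acetate and 38.9 and 37.8 FPKM with DMSO, and Hadha, of fatty acid oxidation, at 11.0 and 8.66 FPKM with crotonate, 17.4 and 33.8 FPKM with acetate and 41.1 and 38.3 FPKM with DMSO. Their adjusted p was 0.0172 and 0.0158 in the fit of 4.

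Several lists of genes for general cell functions were on the lower side. Of 34 lists with at least 5 tested members, 24 had a median below that of all genes. The 34 also took in lists of stage and cell type markers. In the fit of 6, 29 lists held no called gene, and none held a gene called higher. Some of the 24 medians lay close to that of all genes and changed sides under other settings. Among these were mRNA decay and lipid droplets (-0.02 each) and fatty acid oxidation (-0.03). Less the median of all genes, list medians were -0.69 for the tricarboxylic acid cycle (-0.84 to -0.52 over all settings tried), -0.64 for the proteasome (-0.81 to -0.49), -0.62 for oocyte transcripts (-0.78 to -0.51), -0.51 for ribosome biogenesis (-0.69 to -0.40) 0.82 for genes of the 2-cell stage (0.27 to 1.19) and 1.06 for blood markers (0.12 to 1.26). The last was the highest of the 34, from 5 tested members, of which Hba-a2 and Lyz2 were higher in the fit of 4. Both reached 1 FPKM in the crotonate libraries alone. They passed the filter through the group where they were high, so their share is not set against that of all genes. With no filter on low values, 14 blood markers entered and their median less that of all genes was 0.12. Hba-a2, an alpha-globin gene, was at 3.39 and 3.39 FPKM with crotonate, 0.77 and 0.85 FPKM with acetate and 0.61 and 0.73 FPKM with DMSO. The tricarboxylic acid cycle had the highest share of lower genes in the fit of 4, with 11 of 25 (44%) against 6.12% of all genes, 0 higher and a median of -0.84. Sdhd, of succinate dehydrogenase, was at 9.24 and 4.82 FPKM with crotonate, 21.3 and 24.9 FPKM with acetate and 27.0 and 25.9 FPKM with DMSO. Idh3a, of isocitrate dehydrogenase, was at 27.3 and 21.6 FPKM with crotonate, 51.6 and 51.8 FPKM with acetate and 57.3 and 57.9 FPKM with DMSO, and Fh1, fumarate hydratase, at 10.8 and 10.6 FPKM with crotonate, 25.4 and 33.7 FPKM with acetate and 25.4 and 30.6 FPKM with DMSO. The crotonate libraries were lowest in each, with acetate close to DMSO. None was called in the fit of 6, with adjusted p-values of 0.0723, 0.0987 and 0.105.

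Of 38 tested proteasome genes 13 (34.2%) were lower in the fit of 4, against 6.12% of all genes, and 1 in the fit of 6, against 0.319%. That gene was Psma7, of the core particle, at 73.8 and 50.8 FPKM with crotonate, 181 and 242 FPKM with acetate and 300.1 and 335 FPKM with DMSO (-2.35, adjusted p = 0.0288). Psma4, also of the core, was at 41.5 and 30.9 FPKM with crotonate, 98.7 and 101 FPKM with acetate and 116 and 119 FPKM with DMSO, and Psmc5, an ATPase of the regulatory particle, at 15.5 and 10.4 FPKM with crotonate, 36.2 and 70.7 FPKM with acetate and 57.6 and 64.8 FPKM with DMSO. Ribosome biogenesis had 25 of 90 genes (27.8%) lower and 0 higher in the fit of 4, and 1 lower in the fit of 6, Ltv1, a factor that helps mature the small ribosomal subunit. Ltv1 was at 3.50 and 4.09 FPKM with crotonate, 10.9 and 17.6 FPKM with acetate and 22.4 and 21.6 FPKM with DMSO (-2.26, adjusted p = 0.0448). Gnl3, nucleostemin, was at 12.1 and 10.6 FPKM with crotonate, 37.9 and 36.0 FPKM with acetate and 39.0 and 54.2 FPKM with DMSO, and Bms1, of the small-subunit processome, at 11.0 and 5.94 FPKM with crotonate, 18.1 and 37.0 FPKM with acetate and 52.1 and 79.3 FPKM with DMSO.

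Cytosolic ribosomal proteins did not share that direction. Of 81 tested, 2 (2.47%) were higher and 6 (7.41%) lower in the fit of 4, close to the 2.17% and 6.12% of all genes. Their median was 0.06. Of 53 translation factors 9 (17.0%, against 6.12% of all genes) were lower and 0 higher in the fit of 4. Among them was Eif4a2, an RNA helicase, at 95.1 and 87.6 FPKM with crotonate, 353 and 257 FPKM with acetate and 263 and 263 FPKM with DMSO. Of 74 nuclear genes of oxidative phosphorylation 8 (10.8%, against 6.12% of all genes) were lower and 0 higher in that fit. Their median was -0.49, whereas the 13 protein-coding genes of the mitochondrial genome had a median of 0.48. Uqcrc2, a core subunit of complex III, was called lower in the fit of 6, at 11.9 and 7.55 FPKM with crotonate, 52.6 and 52.3 FPKM with acetate and 51.8 and 55.9 FPKM with DMSO (adjusted p = 0.0309). The mitochondrial gene mt-Cytb, of the same complex, was higher in the fit of 4, at 15708 and 12140 FPKM with crotonate, 19316 and 7837 FPKM with acetate and 8271 and 7478 FPKM with DMSO.

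A list of 55 G2 and mitosis genes, which does not hold Aspm, Tacc3, Dlgap5, Zwilch or Mis18a, gave 0 calls in the fit of 6 (limma). At an unadjusted p under 0.05, 0 of its genes were higher and 18 (32.7%) lower, against 5.72% and 10.6% of all genes. In the fit of 4, 12 (21.8%) were lower and 0 higher, against 6.12% and 2.17% of all genes. Ncaph, of condensin, was at 4.61 and 3.89 FPKM with crotonate, 12.1 and 29.3 FPKM with acetate and 31.6 and 31.5 FPKM with DMSO, and Plk1, a mitotic kinase, at 21.8 and 21.0 FPKM with crotonate, 19.9 and 79.3 FPKM with acetate and 63.1 and 74.9 FPKM with DMSO. DNA replication had 12 of 54 genes (22.2%) lower and 1 higher in the fit of 4. The higher one was Pola1, the catalytic subunit of DNA polymerase alpha, at 220 and 227 FPKM with crotonate, 85.3 and 69.1 FPKM with acetate and 104 and 118 FPKM with DMSO, while its primase partner Prim1 was at 6.73 and 3.81 FPKM with crotonate, 9.90 and 10.5 FPKM with acetate and 18.2 and 19.98 FPKM with DMSO. Of 55 chromatin modifiers 5 (9.09%, against 6.12% of all genes) were lower and 0 higher in that fit, among them Dnmt1, the maintenance DNA methyltransferase, at 8.34 and 5.25 FPKM with crotonate, 10.6 and 52.4 FPKM with acetate and 45.0 and 85.1 FPKM with DMSO. Acetate replicate 1 stood near the crotonate level for Plk1 and Dnmt1, and acetate replicate 2 near that of DMSO.

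**Figure D4:**
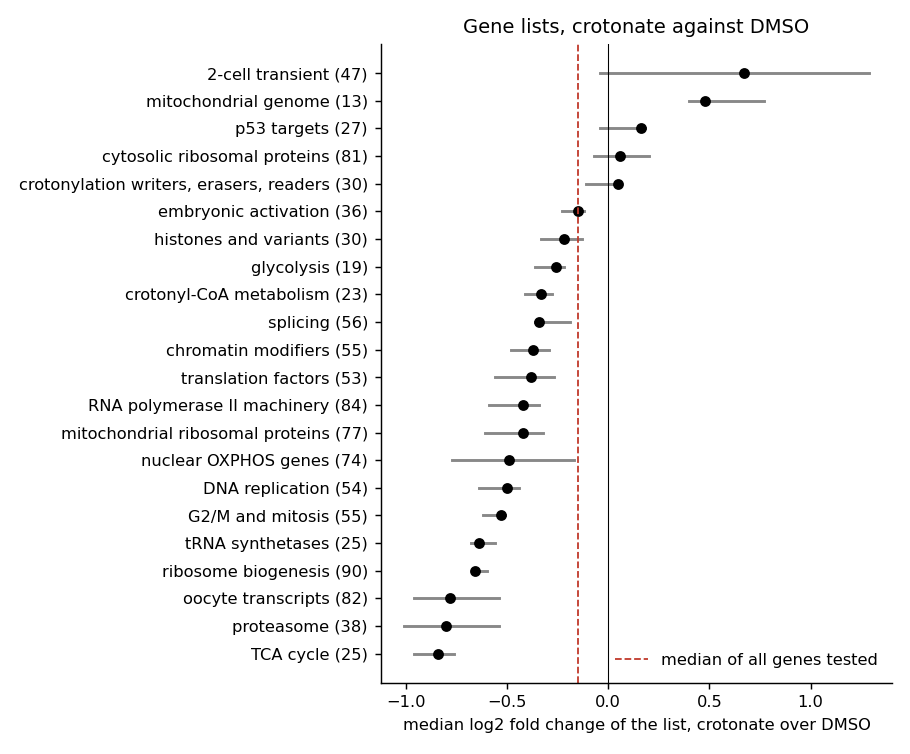
For each gene list, the dot is the median fitted log2 difference, crotonate minus DMSO, of its tested members, and the bar runs over the medians computed from the 4 pairs of a crotonate with a DMSO library. The dashed line is the median of all genes, -0.15, and the tricarboxylic acid cycle, proteasome, oocyte and ribosome biogenesis lists lie below it.

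Acetate gave a view of what another short-chain acid salt did. Crotonate differed from acetate in 141 genes higher (1.02%) and 116 lower (0.840%), and acetate from DMSO in 10 genes (0.0724%), 1 higher and 9 lower, with 824 at an unadjusted p under 0.05. The 3 comparisons share libraries, so their values are given only side by side. The acetate values lay between crotonate and DMSO for Ip6k2, Clcc1 and Mtfr2, and also for Aspm, Kpna2, Eif3e, Nsrp1, Taf1b, Ssb and Psma7. They were near DMSO for Uqcrc2 and near or above DMSO for the Fbxw genes. Crabp2, a carrier of retinoic acid, was at 25.2 and 27.8 FPKM with crotonate, 368 and 191 FPKM with acetate and 138 and 189 FPKM with DMSO, lower in crotonate than in either (adjusted p = 0.0375 against DMSO). The count for acetate against DMSO was 906 without acetate replicate 2, 11 without acetate replicate 1 and 1 to 17 without another library.

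The siRNA experiment shares no library with the treatment experiment, so it was used to read the same genes in other embryos. Echs1 was at 0.71, 5.88 and 3.82 FPKM in siEchs1 embryos and 30.5, 27.5 and 32.5 FPKM in siCon embryos at E2C (-3.02, limma adjusted p = 0.00252). Of 13013 genes tested in both experiments, 13.3% were called higher and 9.53% lower in siEchs1 than in siCon at E2C. Among the 840 of them that were lower in crotonate in the fit of 4, 259 (30.8%) were higher in siEchs1 and 10 (1.19%) lower. Among the 235 that were higher in crotonate in that fit, 11 (4.68%) were higher and 59 (25.1%) lower. Both shares of opposite calls lay above those of all genes, which is a description with no test of the difference. In the fit of 6 the numbers were small. Of 41 lower genes, 6 (14.6%) were higher in siEchs1, close to the 13.3% of all genes, and 1 (2.44%) was lower. Of 13 higher genes, 0 were higher and 4 (30.8%) lower, against 9.53% of all genes lower.

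The size of these shares moved with the libraries in the fit. Replicate 3 of siEchs1 at E2C had a rank correlation of 0.668 and 0.718 across genes with the other two, which had 0.900 with each other, and siCon pairs had 0.902 to 0.915. Without it 564 of the 840 genes lower in crotonate (67.1%) were higher and 13 (1.55%) lower in siEchs1, against 25.9% and 14.7% of all genes, and of the 235 higher ones 8.51% were higher and 31.9% lower. The share of genes lower in crotonate that were called higher in siEchs1 was 23.7% and 13.9% without siEchs1 replicate 1 and 2, and 20.7%, 16.7% and 15.7% without siCon replicate 1, 2 and 3. Leaving out any 1 of the 6 siRNA E2C libraries, 13.9% to 67.1% of the genes lower in crotonate were higher and 0.238% to 1.90% lower, and 2.13% to 8.51% of those higher in crotonate were higher and 15.7% to 31.9% lower. Of all genes, 6.06% to 25.9% were called higher and 5.43% to 14.7% lower in these fits. The direction of both shares against all genes therefore held without each library.

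Single genes varied. Tacc3 was at 413, 636 and 46.1 FPKM in siEchs1 and 37.0, 30.3 and 33.2 FPKM in siCon embryos (2.75, adjusted p = 0.0175), where replicate 3 was near siCon. Zscan4d was at 26.1, 35.2 and 26.4 FPKM in siEchs1 and 128, 107 and 137 FPKM in siCon (adjusted p = 0.000971), and Crxos at 14.1, 51.3 and 115 FPKM in siEchs1 and 194, 629 and 504 FPKM in siCon (adjusted p = 0.0154). The last 2 genes were each lower in all 3 siEchs1 libraries. Fbxw14 was at 3566, 3090 and 209 FPKM in siEchs1 and 576, 418 and 635 FPKM in siCon, high in 2 siEchs1 libraries and low in replicate 3, and was not called (adjusted p = 0.267). Snrnp70 did not move oppositely, at 31.6, 44.2 and 22.4 FPKM in siEchs1 and 12.1, 7.96 and 8.09 FPKM in siCon (1.67, adjusted p = 0.0115). Between stages, siCon L2C over siCon E2C, 31.9% of all genes were called higher and 17.8% lower, and of the genes lower in crotonate in the fit of 4, 25.6% were higher and 17.7% lower, and of those higher in crotonate 29.4% and 15.7%. The 25.6% lay below the 31.9% of all genes, and the other shares lay nearer to those of all genes. By the rule of at least 2-fold without overlap, 37.7% of the genes higher in crotonate were higher at L2C and 12.1% lower. Of those lower in crotonate by that rule, 26.7% were higher and 18.6% lower. These differences from all genes were not tested.

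**Figure D5:**
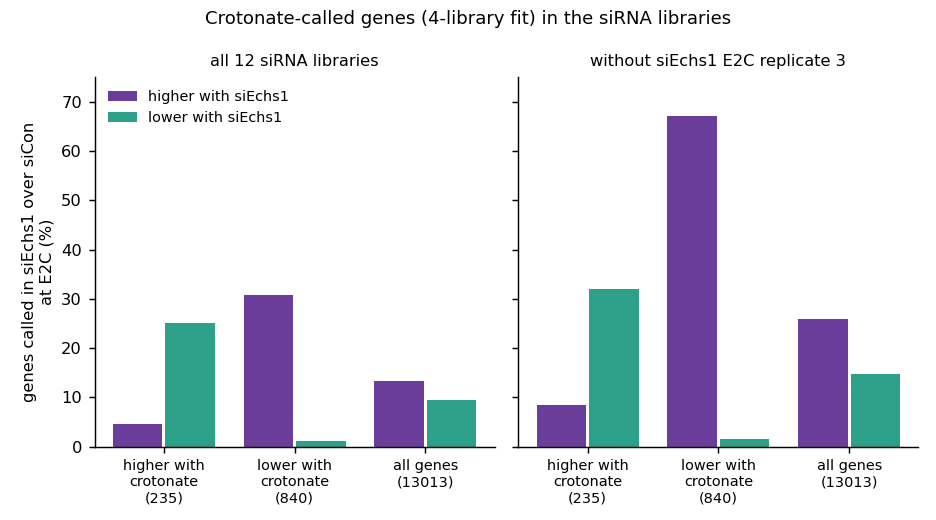
Percent of genes called higher and lower in siEchs1 over siCon at E2C among genes that were lower (840) or higher (235) in crotonate in the fit of 4 libraries and among all 13013 genes in both experiments, from all siRNA libraries and without siEchs1 E2C replicate 3. The share called higher is 30.8% of the genes lower in crotonate against 13.3% of all genes with every library, and 67.1% against 25.9% without that replicate.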

How the data were processed

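The samples were RNA libraries of mouse embryos, and samples were grouped by their titles. The authors deposited FPKM values, 1 file per library with 55335 genes. Their processing, per the submitters' processing notes, used cutadapt 1.16, STAR and the mm10 build. The aligner's version, the annotation and the FPKM program were not given in the sources used. FPKM divide by library total and exon length, so small genes get high values from few fragments, and strand is not kept. Entries with a repeated symbol (212) were left out, which left 55123 genes. Biotype, position and exon length came from GENCODE M21 (99.7% of IDs matched), and sequences from that annotation's transcripts and RefSeq promoter windows (GRCm38.p6).

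Values were tested as log2(FPKM + 1) with limma-trend and robust variance (limma 3.58.1, R 4.3.3), two-sided, over genes that reached 1 FPKM in 2 of the 6 treatment libraries, or in 3 of the 12 siRNA libraries for the siRNA fit. Log2 differences are on this scale, so those of low genes are understated. Calls needed an adjusted p under 0.05 (Benjamini-Hochberg over all genes tested). The script was tested on simulated data. Low FPKM values were checked for steps of whole fragments: 43.6% to 49.9% of them lay within 0.15 fragments of a step in a library, where chance gives 30.0%, too few to recover counts, so depth is known only roughly and counting error is unknown.

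Genes named were, in each direction, the 8 largest differences among called genes with non-overlapping libraries and at least 5 FPKM (predicted genes, pseudogenes and genes under 200 nt left out), filled by smallest p where fewer were called, up to 3 called members of each list with at least 3, and a panel of 30 genes of which 25 were tested. Other genes named as examples of lists, families and small RNAs were chosen after their values were seen. Members, lists and panel were chosen with earlier results of these data known. Lists are described by counts and medians with no set test. Alternatives were 3 other scalings (quantile, median-ratio, and rescaling without mitochondrial and ribosomal RNA), a pseudocount of 0.1, filters, no trend, the replicate number as a block, and leaving out each library.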

Additional observations from a re-analysis of the deposited data

How the results depend on the processing

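Counts of calls depended strongly on the settings, and relative to all genes the medians of 11 of 34 lists changed sign under at least 1 setting. The 73 calls became 60 with quantile normalization (30 higher, 30 lower), 46 with median-ratio scaling (26 and 20), 40 with rescaling (21 and 19), 31 with a pseudocount of 0.1 (12 and 19), 9 with no filter (7 and 2), 65 with a filter of 5 FPKM (7 higher), 34 without trend (12 lower), 1144 in the fit of 4 libraries (299 and 845), 149 among protein-coding genes alone (126 lower) and 48 without genes under 200 nt (10 higher). These scalings moved the median over all genes by up to 0.22, to -0.01, 0.06 and -0.14. Leaving out each library gave 8 to 1143 calls, 8 to 280 higher and 0 to 863 lower. Crotonate against acetate (257) gave 163, 168, 162, 9 and 72 calls with median-ratio, rescaling, the pseudocount, no filter and no trend. Its 141 higher calls became 84 with the pseudocount, 8 with no filter and 50 without trend. Its 116 lower calls became 47 with median-ratio, 49 with rescaling, 1 with no filter, 22 without trend and 70 with the replicate block, and leaving out each library gave 9 to 1427 calls, 9 to 705 higher and 0 to 722 lower. Acetate against DMSO (10, of which 1 higher) gave 5 with quantile and with median-ratio (4 lower each), 2 with a filter of 5 FPKM, 0 with no filter and among protein-coding genes alone, 1 without genes under 200 nt, and 3 higher with the replicate block (limma throughout). Leaving out each library gave 1 to 906 calls, 0 to 174 higher and 1 to 732 lower. What the replicate number stands for was not given. Deviations of samples with the same number correlated at 0.160 for crotonate with acetate, -0.096 for crotonate with DMSO and 0.004 for acetate with DMSO. These values cannot show whether such samples shared a culture or a preparation. The replicate block gave 69 calls for crotonate against DMSO. The number of lists below the median of all genes, 24, was 20 to 26 without each library. In siEchs1 against siCon, leaving out each library, 0 to 1 of the genes higher in the fit of 6 were called higher and 1 to 33 of the lower genes. For the fit of 4, 5 to 20 of the higher genes were called higher (7 with a siRNA filter of 5 FPKM) and 37 to 75 lower, and 117 to 564 of the lower genes were called higher and 2 to 16 lower. Between stages, 0 to 4 of the higher genes of the fit of 6 were called lower (2 with that filter), 3 to 7 of its lower genes higher and 6 to 22 lower, and for the fit of 4, 103 to 234 of the lower genes were called lower. The cause of these differences was not tested. With 2 libraries a group and roughly known depth, small differences and genes near 1 FPKM were not resolved.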

Other observations

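Genes of retinoic acid handling were split. Crabp2, which brings retinoic acid to its receptors, was the called gene among 11 tested, while Cyp26a1, which degrades retinoic acid, was at 7.28 and 15.8 FPKM with crotonate, 2.15 and 1.53 FPKM with acetate and 1.17 and 0.15 FPKM with DMSO. Crabp1, a second carrier, was at 5.50 and 3.62 FPKM with crotonate and 0.64 and 0.67 FPKM with DMSO. It reached 1 FPKM in only 1 other library, acetate replicate 1 at 1.01 FPKM, so it passed the filter through the crotonate libraries. Aldh1a3, which makes retinoic acid, was at 128 and 131 FPKM with crotonate, 40.6 and 19.2 FPKM with acetate and 70.9 and 64.4 FPKM with DMSO. The last 3 genes were higher in the fit of 4 libraries, as were 2.17% of all genes, and not called in the fit of 6. Crabp2 was lower in both fits, as were 0.319% of all genes in the fit of 6 and 6.12% in the fit of 4. Of the 11 genes, 7 had a negative and 4 a positive log2 difference. Their median was -0.43, against -0.15 over all genes. This group was chosen after its values were seen.

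All 6 tested Oas1 genes, of the 2'-5'-oligoadenylate synthetase family on chromosome 5, had a negative log2 difference, as did 61.0% of all genes, with a median of -1.16. Of them 1 was called lower in the fit of 6, against 0.319% of all genes, and 4 in the fit of 4, against 6.12%, while Oas1b and Oas1f passed in neither. Oas1h was at 48.8 and 37.9 FPKM with crotonate, 130 and 210 FPKM with acetate and 250 and 322 FPKM with DMSO (limma adjusted p = 0.0223). Among 12 Nlrp genes, oocyte proteins of the NLR family, 10 had a negative difference and 3 passed in the fit of 4, and under quantile and median-ratio scaling 4 rather than 2 had a positive one. Of 27 tested targets of p53, 0 were called in either fit (limma), with 5 higher (18.5%) and 0 lower at an unadjusted p under 0.05, against 5.72% and 10.6% of all genes. Retn, which encodes resistin, was at 23.8 and 28.5 FPKM with crotonate, 9.98 FPKM and listed at 0 in acetate, and listed at 0 and 0.09 FPKM with DMSO (adjusted p = 0.0892 in the fit of 6). Outside crotonate Retn reached 1 FPKM in only 1 library, so it passed the filter through the crotonate libraries.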
